A study of Mus musculus with 10 samples.

Results

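Cumulus-oocyte complexes (COC), the unit of an oocyte and the cumulus cells attached to it, were compared with libraries labelled as cumulus cells alone. The comparison used 5 of the 10 mouse RNA-seq libraries of the study: 2 of COC and 3 of cumulus cells. COC came from mice aged 3 weeks that had been primed with PMSG, a gonadotropin with FSH-like activity, with 1 library from DBA/2 mice and 1 from BDF1 mice, a hybrid of C57BL/6 and DBA/2 parents. Cumulus cells came from C57BL/6 mice aged 2 months, and the labels do not say whether these mice were primed. Libraries were put into groups by their labels, and the remaining 5 libraries, of cumulus cells at 10 months and mural granulosa cells at 2 months (both C57BL/6), serve as reference levels. The groups differ in the presence of the oocyte, in age, in strain and, as far as labelled, in priming, and these cannot be told apart for any gene below. Each strain of COC is 1 library, and nothing in the labels ties the libraries of a group to different animals. The p-values therefore refer to spread between libraries alone, part of which may be technical. A culture medium with milrinone, an inhibitor of phosphodiesterase 3, is named in the protocols for the series.

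In the antral follicle the oocyte and its cumulus cells are joined by gap junctions through the zona pellucida, the coat that the oocyte secretes. The oocyte of the mouse makes little cholesterol, uses pyruvate supplied by the cumulus cells, and sends them GDF9 and BMP15, growth factors that keep cumulus cells apart in character from the mural granulosa cells of the follicle wall. FSH drives granulosa growth, whereas LH receptor and steroid enzymes mark the mural cells.

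Levels are fragment numbers scaled by gene length and library size (FPKM), and how far other scalings between libraries move the results is given below. COC values are given in the order BDF1, DBA/2, and cumulus values in the order of replicates 1, 2 and 3 at 2 months. A gene passed when its adjusted p was under 0.05 in limma, fitted on log2(FPKM + 1) with Benjamini-Hochberg adjustment over all 12454 genes with a mean of at least 1. Fold changes are COC minus cumulus on that log2 scale, which understates changes of low genes, with standard errors (SE). In a sample of whole complexes, fewer cells of a type and less RNA per cell cannot be told apart.

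Oocyte transcripts stood above the cumulus range in both COC libraries, though few passed the test. Of 26 oocyte markers, 25 were tested and Sohlh1 was listed at 0 in all 5 libraries. All 25 were higher in both COC libraries than in any cumulus library, against 37.6% of all genes tested, and their median log2 fold change was 3.87 against 0.15 over all genes. Yet 1 of the 25, Figla, passed the test, against 9.53% of all genes tested that passed as higher. All 25, Gdf9 included, stood in 1 library order, with cumulus replicate 2 lowest, then replicate 1, then replicate 3, then COC. Without cumulus replicate 3, 13 of the 25 passed as higher, against 14.7% of all genes tested in that fit. The median marker reached 7.26% of its mean COC level in cumulus replicate 1, 0% in replicate 2 and 39.4% in replicate 3. Set against replicate 2 alone, which was picked because it held the least oocyte RNA, the median difference was 6.87 with no test.

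**Figure D1:**
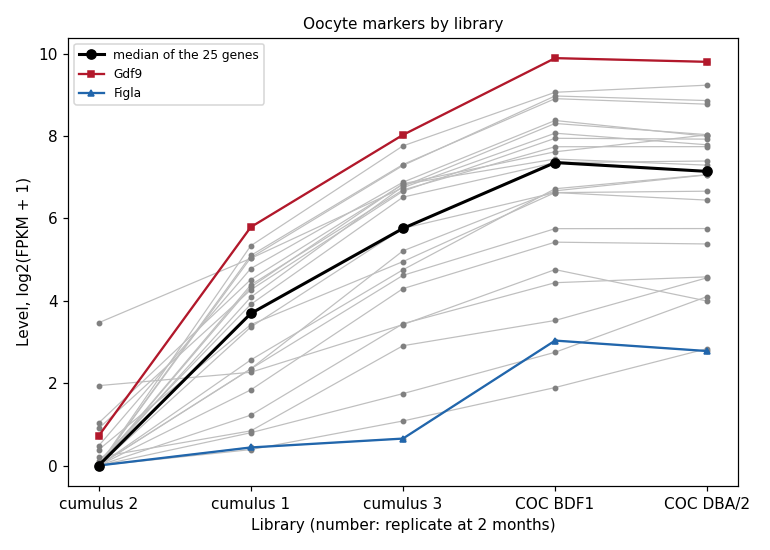
Levels of the 25 oocyte markers tested, as log2(FPKM + 1), in the 3 cumulus libraries at 2 months and the 2 COC libraries; grey lines join the values of 1 gene and the black line is the median. Each marker climbs from cumulus replicate 2 through replicates 1 and 3 to COC, and Figla alone stays under 1 in all 3 cumulus libraries.

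The secreted factors of the oocyte showed this order plainly. Gdf9 stood at 951 and 894 in COC and at 54.4, 0.647 and 261 in cumulus cells, a log2 fold change of 5.0 (SE 2.04, adjusted p = 0.14). Bmp15, its partner on the X chromosome, stood at 163 and 167 and at 14.1, 0.0724 and 90.7 (log2 fold change 3.87, adjusted p = 0.18). For both genes the COC pair lay close together and the cumulus libraries spanned most of the range below it. Fgf8, which acts with BMP15 on cumulus glycolysis, was at 5.73 and 16.2 and 0.737, 0 and 2.36 and missed the threshold (adjusted p = 0.055). Bmp6 differed from the other 3, since cumulus cells held 26.5, 22.8 and 25.9 and COC 35.1 and 39.1, and granulosa cells are known to express it too.

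The zona genes Zp1, Zp2 and Zp3 encode the coat glycoproteins and are made by the oocyte alone in the mouse. Zp3 was at 480.3 and 438 in COC and 33.3, 0 and 158 in cumulus cells, and Zp2 at 316 and 261 and 16, 0 and 109. Zp1 was lower, at 97.9 and 100.4 against 9.29, 0 and 53.2. None passed (adjusted p = 0.17, 0.15 and 0.16 for Zp1, Zp2 and Zp3), and each was listed at 0 in cumulus replicate 2. The zona genes are known targets of FIGLA, a factor that binds the E-box CANNTG, and Figla was the marker that passed. The 250 bases before the Zp3 start are shown because they carry 3 such matches. They lie at chr5:135979855-135980104 on the plus strand (RefSeq, GRCm38.p6), and capitals mark CANNTG, which reads the same on both strands, starting 181, 134 and 55 bases before the start.
Zp3: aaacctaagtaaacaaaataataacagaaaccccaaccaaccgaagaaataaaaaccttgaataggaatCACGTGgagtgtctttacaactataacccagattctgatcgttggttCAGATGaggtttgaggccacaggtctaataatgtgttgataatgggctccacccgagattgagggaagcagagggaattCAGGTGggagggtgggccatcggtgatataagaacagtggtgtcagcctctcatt
CANNTG occurred in this window in 16 of the 18 oocyte markers with a RefSeq promoter (88.9%), in 61.8% of the 9824 tested genes with one, and in 69.3% of all 27025 genes with one. A match of letters is a description and not a binding site.

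Among oocyte regulators, 3 of 17 tested members passed as higher and 0 as lower, against 9.53% and 2.3% of all genes tested, the background for every count of passing members below. Without cumulus replicate 3, 13 of the 17 were higher, against 14.7% of all genes in that fit. Figla was at 7.19 and 5.87 in COC and 0.356, 0 and 0.574 in cumulus cells (log2 fold change 2.54, SE 0.29, adjusted p = 0.033). Patl2, an RNA-binding protein needed for oocyte maturation, was at 9.67 and 13.5 against 0.177, 0.0929 and 2.36 (adjusted p = 0.035), and Lsm14b, a protein of oocyte RNA granules, at 179.5 and 208 against 36.7, 27.5 and 70.7 (adjusted p = 0.035). All 3 were higher in both COC libraries than in any cumulus library, but so were 15 of the 17 tested, against 37.6% of all genes. Other regulators did not pass: H1foo, the oocyte linker histone, was at 535 and 603 against 39.5, 0 and 216, and Nobox, a transcription factor of growing oocytes, at 52.9 and 53 against 4.09, 0 and 23.6. Taf4b was at 16.8 and 19.1 against 12.4, 18.5 and 20.5 and overlapped.

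Maternal effect genes, whose products the embryo inherits, gave 3 of 20 tested members higher, against 9.53% of all genes, and 0 lower. Without cumulus replicate 3, 9 of the 20 were higher, against 14.7%. Dnmt1, the maintenance DNA methyltransferase, was at 260.4 and 191 in COC and 62.7, 51.7 and 105 in cumulus cells (log2 fold change 1.66, adjusted p = 0.039). Uhrf1, its partner, was at 102 and 98.6 against 70, 59.2 and 68.7 (adjusted p = 0.047), and Atg5, of autophagy, at 37.5 and 49.7 against 20.6, 21.9 and 26.8 (adjusted p = 0.045). All 3 were expressed in every cumulus library too. The subcortical complex itself missed the threshold: Padi6 was at 503 and 465 against 32.1, 0 and 155, Nlrp5 at 166 and 140.5 against 11.9, 0 and 52.7, and Ooep at 246 and 242 against 18.3, 0.867 and 100.3. Trim28, Smarca4, Hsf1 and Ctcf, which many cell types express, had log2 fold changes from -0.18 (Hsf1) to 0.06 (Trim28).

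Of the meiosis genes, 1 of 17 tested passed. Leaving out cumulus replicate 3 gave 9 of the 17 as higher, against 14.7% of all genes in that fit. Bub1b, a spindle checkpoint kinase, was at 158 and 159 in COC and 61.8, 54.3 and 79.5 in cumulus cells (log2 fold change 1.29, SE 0.19, adjusted p = 0.034). Mos, the kinase of metaphase arrest, was at 105 and 133 against 4.92, 0 and 26, and Pde3a, the phosphodiesterase that milrinone inhibits, at 11 and 12 against 0.789, 0.259 and 3.86 (adjusted p = 0.074 and 0.0501). Gpr3, the receptor that keeps cyclic AMP high in the arrested oocyte, was at 9.88 and 21.4 against 1.32, 0.961 and 6.32. Of the genes of meiotic prophase, Spo11 and Dmc1 were at most 0.402 in the 5 libraries, while Sycp3, of the synaptonemal complex, was at 2.61 and 2.66 against 0.645, 0.677 and 1.21 without overlap and did not pass (adjusted p = 0.062). In the piRNA pathway, which silences transposons in germ cells, 2 of 10 tested members passed. Mael was at 22 and 23.1 against 0.882, 0 and 3.8 (adjusted p = 0.035). Tdrd9 was at 3.47 and 3.54 against 0.171, 0 and 0.623 (adjusted p = 0.034). In the fit that left out cumulus replicate 3, 7 of the 10 were higher.

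Over all genes, 1473 of 12454 passed (11.8%), of which 1187 were higher in COC (9.53%) and 286 lower (2.3%). At an unadjusted p under 0.05 there were 4424. Of those that passed, 80.6% were higher, but this split depends on the scale: it was 47.6% when each library was centred on its median gene, 50.6% after quantile normalization and 56.4% when libraries were scaled to 1 sum without microRNA and small nucleolar RNA genes. These scalings moved the median of all genes by -0.23, -0.23 and -0.10. None of the 1473 genes changed sign under any of the 3. Counts also rested on single libraries: 47 genes passed without the BDF1 library, 14 without the DBA/2 library, 28 without cumulus replicate 1, 32 without replicate 2 and 2201 without replicate 3. Of the 78 passing genes that the rule in the processing account names, 7, 1, 1, 2 and 70 passed in those 5 fits, in that order, and Serpina3a passed in all 5. Most calls of these named genes were thus lost when a library other than cumulus replicate 3 was left out, while none of the 78 changed direction.

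**Figure D2:**
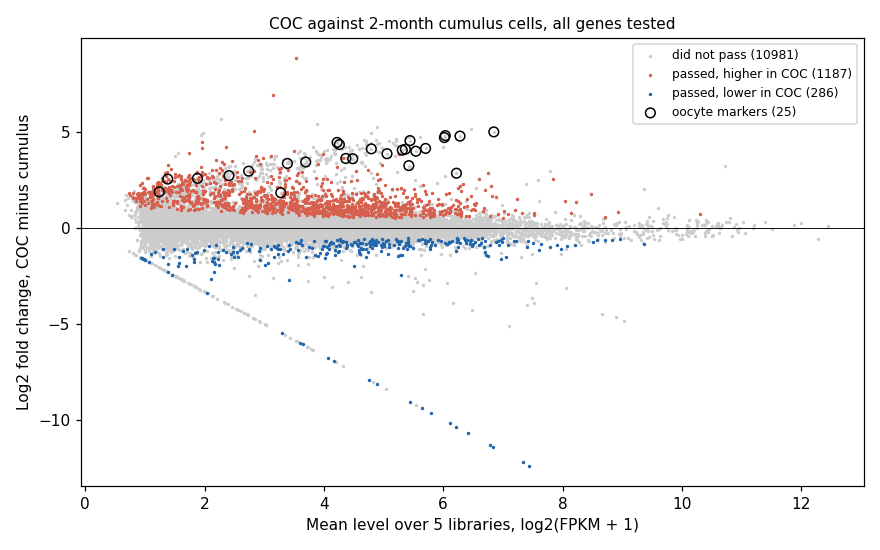
Log2 fold change (COC minus cumulus) against the mean level over the 5 libraries, log2(FPKM + 1), for the 12454 genes tested; red and blue mark the 1187 higher and 286 lower genes that passed, and rings mark the 25 oocyte markers. All rings lie above 0 and 1 of the 25 passed, and the diagonal at the bottom holds genes listed at 0 in both COC libraries.

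Among the 1187 higher genes, 525 (44.2%) stood in the library order of Gdf9, against 1513 of the 12454 tested (12.1%). The order puts COC above every cumulus library, which a passing higher gene also has to do, so the shares are descriptions. Of the 1187 genes, 237 were under an FPKM of 1 in cumulus replicate 2, 264 between 1 and 5, and 686 at 5 or more. In 787 of them (66.3%) replicate 3 was at most 0.5 above replicate 2 on the log2 scale, as it was in 86.5% of genes tested. Most genes that passed as higher in COC thus reached an FPKM of 5 in replicate 2, the cumulus library with the least oocyte RNA. Whether this sets them apart cannot be told, because the same share was not counted for all genes tested. Of the 12454 tested, 9320 averaged 5 or more across the libraries compared.

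Serpina3a, a serine protease inhibitor that passed in every fit without 1 library, was low in all cumulus libraries. It stood at 103 and 240.4 in COC and at 0.238, 0.499 and 0.192 in cumulus cells (log2 fold change 6.93, SE 0.37, adjusted p = 0.0033). Its level in mural granulosa cells was 5.25 and 2.28, above the cumulus libraries and far under COC. Efemp1, the matrix protein fibulin-3, was at 37 and 85.3 against 1.08, 0.452 and 0.782 (log2 fold change 5.03, adjusted p = 0.015), with 4.75 and 5.26 in mural cells. Serpina5, an inhibitor of activated protein C, was at 9.38 and 58.2 against 0.302, 0.106 and 0 (adjusted p = 0.034). In these 3 genes the cumulus library richest in oocyte RNA, replicate 3, was no higher than replicate 1.

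Bfsp1, a lens filament protein, was at 18.8 and 43.9 in COC and 0.819, 0.478 and 0.514 in cumulus cells (adjusted p = 0.024). Pnpla3, a lipid droplet enzyme, was at 13.7 and 31.8 against 0.12, 0.23 and 0.321 (adjusted p = 0.024), and Klf1, known as an erythroid transcription factor, at 6.6 and 36.1 against 0.148, 0.156 and 0.12 (adjusted p = 0.034). Each of the 6 genes from Serpina3a to Klf1 was higher in the DBA/2 library than in the BDF1 library, with log2 ratios of BDF1 over DBA/2 from -1.16 (Pnpla3) to -2.51 (Serpina5). With 1 library per strain this has no test. Of erythroid markers, Hba-a1 overlapped at 2.05 and 0 in COC against 1.65, 2.29 and 0 in cumulus cells, Alas2, of heme synthesis, was at 14.3 and 7.8 against 16.1, 16 and 13.3 (adjusted p = 0.26), and Slc4a1 was listed at 0 in all 5 libraries.

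**Figure D3:**
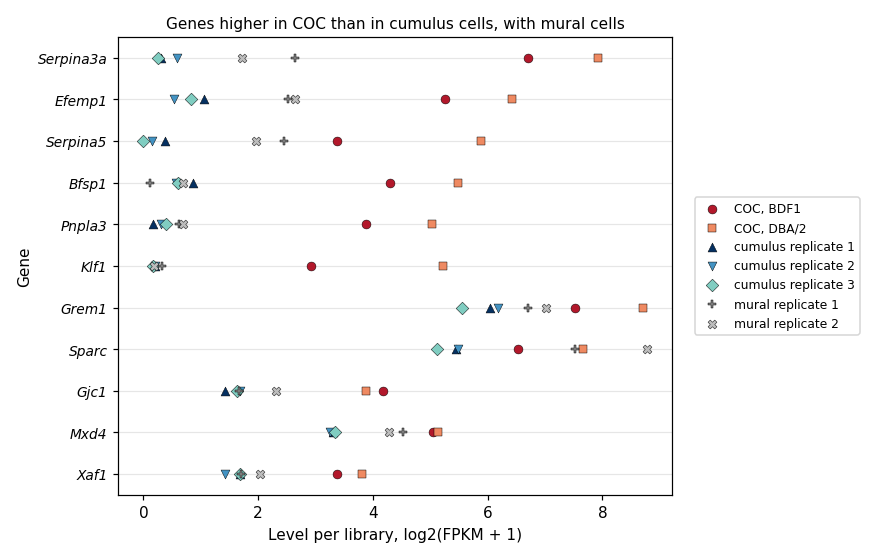
Levels of 11 genes that passed as higher in COC, as log2(FPKM + 1), in each COC, cumulus and mural library; 1 symbol is 1 library. The COC symbols lie to the right of the cumulus symbols in every row, and the mural symbols of Sparc reach or pass the COC values.

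Some other large differences did follow the oocyte order. Gtdc1, a glycosyltransferase-like gene, was at 182 and 199.6 in COC and 10.4, 7.8 and 21.6 in cumulus cells (log2 fold change 3.87, adjusted p = 0.032). Utp23, of ribosome assembly, was at 107 and 137 against 8.83, 6.71 and 26.6, and Tlcd2, of membrane lipids, at 291 and 426 against 41.5, 27.2 and 96.5 (adjusted p = 0.035 and 0.035). For these 3, replicate 2 was lowest and replicate 3 highest among the cumulus libraries, with replicate 2 still above an FPKM of 5. Mid1, Tbx4, Styk1 and Zfp750 also passed, in that order but for Mid1, whose replicate 1 was lowest, with log2 fold changes of 3.86, 3.72, 3.55 and 3.54. Ppp1r12b, a regulator of myosin phosphatase, was at 69.9 and 89.4 against 7.37, 8.1 and 12.9, and Mxd4, a partner of MAX, at 31.9 and 34.2 against 8.9, 8.5 and 9.15 (adjusted p = 0.024 and 0.016). Replicate 1 was also the lowest cumulus library for Ppp1r12b. Mxd4 was nearly flat across the cumulus libraries and stood at 22 and 18.4 in mural cells. Pacrgl, Bend4 and Rnf185 passed as well, with log2 fold changes of 2.32, 2.11 and 2.24.

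Junction and adhesion genes link the oocyte to its cumulus cells, and of 14 tested 3 were higher and 1 lower. Gjc1, the gap junction protein connexin 45, was at 17.1 and 13.8 in COC and 1.66, 2.22 and 2.09 in cumulus cells (log2 fold change 2.46, SE 0.20, adjusted p = 0.021). Gja4, the connexin 37 of the oocyte side, was at 127 and 123 against 9.03, 1.02 and 36.9 and did not pass (adjusted p = 0.081), while Gja1, the connexin 43 of the cumulus side, overlapped at 1235 and 1525 against 1425, 1528 and 1295. Gja4 was graded like Gdf9 among cumulus libraries and Gjc1 was not. Itga6, the integrin alpha 6 subunit, was at 17.8 and 22.4 against 4.98, 6.21 and 7.84 (adjusted p = 0.034), and Gjb2, connexin 26, at 1.81 and 5.55 against 0.0897, 0.0941 and 0.362 (adjusted p = 0.048). Cdh2, N-cadherin of granulosa cells, went the other way, with 22.8 and 16.9 in COC and 56.1, 57 and 54.5 in cumulus cells (log2 fold change -1.46, adjusted p = 0.033). Cdh1, E-cadherin of the oocyte, was at 8.54 and 10.6 against 0.422, 0 and 3.44 (adjusted p = 0.059).

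Receptors and SMAD genes carry the growth factor signals between oocyte and granulosa cells. Kit, the receptor on the oocyte, was at 26.1 and 14.9 in COC and 3.81, 2.84 and 9.73 in cumulus cells, and its granulosa ligand Kitl at 3.2 and 3.57 against 5.49, 7.66 and 7.62, and neither passed (adjusted p = 0.064 and 0.058). Of 19 SMAD, receptor and ID genes tested, 1 was higher, against 9.53% of all genes, and 0 lower, against 2.3%. Their median log2 fold change was -0.03 and took both signs over the alternatives (from -0.33 to 0.04). Smad3, which carries GDF9 and activin signals, was at 32.4 and 39 in COC and 12, 10.9 and 16.8 in cumulus cells (log2 fold change 1.38, adjusted p = 0.034). Bmpr2, the receptor for GDF9 and BMP15, was at 101 and 160.2 against 55.9, 74.8 and 60.2 without overlap and missed the threshold (adjusted p = 0.053). Grem1, a BMP antagonist that cumulus cells make in response to GDF9, was at 182 and 419 against 65.2, 71.3 and 45.7 (log2 fold change 2.19, SE 0.39, adjusted p = 0.035). Its mural level of 103 and 129 lay between the groups.

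Grem1 was 1 of 2 higher genes among 20 tested members of a list of FSH response genes, with Ahr, the aryl hydrocarbon receptor, at 2.57 and 4.46 against 0.373, 0.47 and 0.723 (adjusted p = 0.038). Ccnd2, the cyclin D2 of granulosa growth, was the 1 lower member, at 81.7 and 61.7 against 126, 130.0 and 109.5 (adjusted p = 0.047). Fshr, the FSH receptor, was at 93.7 and 109 against 79.3, 83.5 and 66.6, without overlap, and did not pass (adjusted p = 0.13). Nr5a2, a nuclear receptor of granulosa cells, was at 143 and 221 against 93.8, 122 and 96.3 (adjusted p = 0.078).

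The receptor for LH and enzymes of steroid synthesis mark mural cells most strongly. Lhcgr, the LH receptor, was at 0.34 and 0.693 in COC, 2.02, 1.41 and 1.63 in cumulus cells and 279.9 and 459 in mural cells. Cyp11a1, the side-chain cleavage enzyme that starts steroid synthesis, was at 10.2 and 28.5, 18, 13.9 and 9.74 and 1067 and 2459.9 in the same order. Cyp19a1, aromatase, was at 22.8 and 28.2, 32.5, 40 and 30.3 and 324 and 358. COC and cumulus values of these genes lay close together or overlapped, and mural values stood far above both. Star, which carries cholesterol into mitochondria, was at 0.63 and 1.5 in COC and 73.5 and 171 in mural cells. Hsd3b1, a steroid dehydrogenase, was abundant in both groups and overlapped, at 145 and 322 in COC and 194, 235 and 184 in cumulus cells. In limma 0 of 9 mural genes and 0 of 15 steroid genes tested passed against cumulus cells, and at an unadjusted p under 0.05 there were 3 and 2.

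Ovulatory genes are switched on by LH during cumulus expansion. Of 21 listed, 8 were tested and 6 were listed at 0 in both COC libraries. The prostaglandin synthase gene Ptgs2 (0.405 and 1.24 in COC), the hyaluronan synthase gene Has2 (0.198 and 0.403) and the EGF-like factor gene Areg (0.802 and 0) stayed under an FPKM of 2. Ptx3 and Ereg, a matrix protein and an EGF-like factor, were among those at 0. Higher levels were found for Vcan, the matrix proteoglycan versican, at 30.1 and 39 in COC and 39.6, 56.5 and 51.5 in cumulus cells, and for the transcription factor genes Cebpb and Cebpa, at 34.4 and 35.7 against 56.6, 42.2 and 44 and 37.7 and 25.1 against 92.4, 60.3 and 59.4, none of which passed (adjusted p = 0.16, 0.14 and 0.052). Runx1, a transcription factor induced by LH, was the 1 member that passed, as lower.

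Granulosa genes were expressed in both groups. Of 17 granulosa genes tested, 0 were higher and 3 lower, with a median log2 fold change of -0.12 that changed sign under some alternatives (from -0.36 to 0.13). Inha, the inhibin alpha subunit, was at 3875 and 5395 in COC and 4911, 3811 and 2871 in cumulus cells, and Foxl2, a factor that maintains granulosa identity, at 92 and 99.8 against 151, 85.6 and 52.8. Both overlapped, as did Esr2, the estrogen receptor beta, at 77.1 and 72.9 against 73.5, 76.1 and 65.2. The 3 lower genes are transcription factors. Gata4 was at 56.1 and 42.6 against 121, 105 and 79 (adjusted p = 0.047), Gata6 at 13.6 and 16.1 against 37.3, 31.6 and 27.5 (log2 fold change -1.06, SE 0.18, adjusted p = 0.035), and Runx1 at 2.82 and 2.19 against 7.14, 7.52 and 7.02 (adjusted p = 0.034). In mural cells Gata4 and Gata6 stood above both groups, at 142 and 155 and 53.4 and 51.

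**Figure D4:**
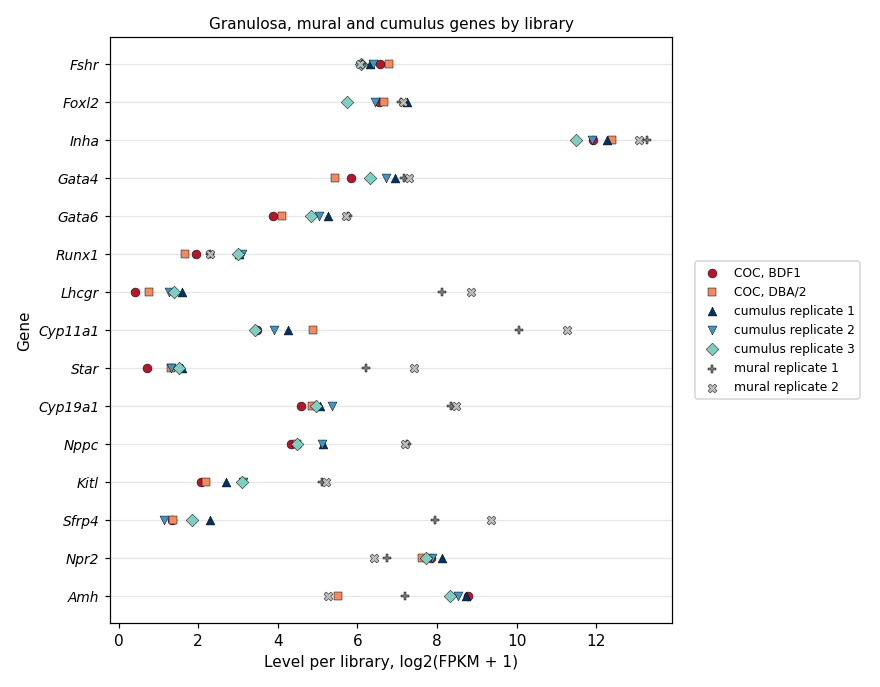
Levels of 15 granulosa, mural and cumulus genes, as log2(FPKM + 1), by library. COC and cumulus symbols lie together for most genes. They lie apart from the mural symbols for Lhcgr, Cyp11a1, Star, Cyp19a1, Nppc, Kitl and Sfrp4, among others. The DBA/2 symbol of Amh lies far left of the BDF1 symbol.

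Of 10 genes known to mark cumulus cells against mural cells, all were tested and 0 passed in limma, with 2 at an unadjusted p under 0.05. These 2, Igfbp2 and Nudt18, were higher in mural than in cumulus cells here. Igfbp2 was at 30.6, 38.4 and 22 in cumulus and 50.7 and 85.1 in mural cells. Nudt18 was at 1.01, 0.885 and 0.998 and at 2.1 and 1.78. Otof and Aqp8 were lower in mural cells, at 1.45 and 0.592 and at 1.05 and 0.295. Npr2, the receptor for C-type natriuretic peptide that holds the oocyte in meiotic arrest, was at 231 and 196 in COC and 277, 235 and 209 in cumulus cells. Nppc, its ligand, was at 19.1 and 21.4 against 34.1, 33.6 and 21.3. Amh, anti-Mullerian hormone, was at 437 and 44.6 in COC, where the BDF1 library lay just above the cumulus libraries (426, 366 and 318) and the DBA/2 library far under it. Slc38a3, an amino acid transporter that oocytes promote in cumulus cells, was at 69.6 and 30.6 against 52.1, 51.2 and 32.1.

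Cholesterol synthesis was the pathway with the most lower members. Of 24 genes tested, 9 passed as lower and 0 as higher, against 2.3% of all genes tested as lower, all 24 had a negative log2 fold change, and 19 lay wholly under the cumulus range, against 17.1% of all genes. The median log2 fold change was -0.70 and stayed between -0.93 and -0.66 under all alternatives. Hmgcs1, which makes the HMG-CoA of the pathway, was at 13.5 and 12.7 in COC and 31, 39.1 and 47.8 in cumulus cells (log2 fold change -1.50, SE 0.21, adjusted p = 0.034). Further along, Pmvk was at 14.6 and 11.6 against 28.1, 26.6 and 24.3, Mvd at 28.2 and 26.7 against 46.5, 49.2 and 39.9, and Fdps at 157 and 167 against 323, 282 and 317 (adjusted p = 0.035, 0.043 and 0.034). These 4 enzymes lead from acetyl-CoA to farnesyl diphosphate.

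Sqle, the squalene epoxidase, was at 44.6 and 34.2 in COC and 73.6, 79.5 and 66.5 in cumulus cells (adjusted p = 0.036), and Sc4mol, a sterol methyl oxidase, at 72.4 and 80.4 against 117, 127 and 130.5 (adjusted p = 0.035). Idi1, the isopentenyl isomerase, was at 18.6 and 22 against 30.9, 45.2 and 47.1 and passed narrowly (adjusted p = 0.0499). Srebf2, which encodes the sterol-sensing transcription factor SREBP2, was at 29.6 and 27.4 against 57.1, 51.8 and 50.3 (log2 fold change -0.87, adjusted p = 0.034). Fdft1 and Insig1 had the log2 fold changes -0.07 and -0.21. The count of lower members was 15 with median centring, 15 after quantile normalization and 10 without cumulus replicate 3, against 5.18%, 5.97% and 3% of all genes in those fits, and 0 without any other single library.

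**Figure D5:**
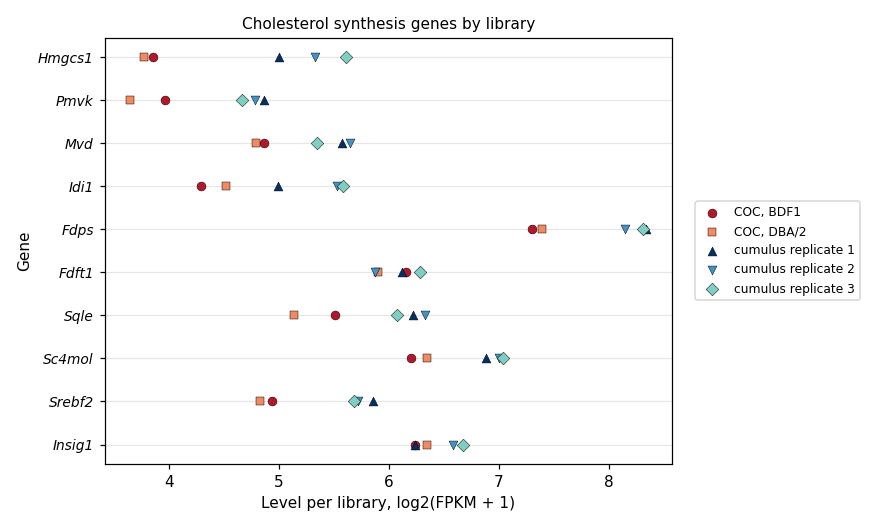
Levels of 10 genes of cholesterol synthesis and its regulation, as log2(FPKM + 1), in the 5 libraries; 1 symbol is 1 library. Both COC symbols lie left of all cumulus symbols in 8 rows, and those of Fdft1 and Insig1 overlap with them.

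SREBP2 acts at sterol elements together with NF-Y, which binds CCAAT. The 250 bases before the start are shown for 3 genes of the pathway that passed, since CCAAT was found in all 16 of its genes with a RefSeq promoter (100%), in 41.3% of the tested genes with one and in 37.5% of all genes with one. Capitals mark CCAAT on either strand (CCAAT or ATTGG), from RefSeq, GRCm38.p6: Hmgcs1 at chr13:119690101-119690350 on the plus strand, Srebf2 at chr15:82147019-82147268 on the plus strand and Mvd at chr8:122443423-122443672 on the minus strand.
Hmgcs1: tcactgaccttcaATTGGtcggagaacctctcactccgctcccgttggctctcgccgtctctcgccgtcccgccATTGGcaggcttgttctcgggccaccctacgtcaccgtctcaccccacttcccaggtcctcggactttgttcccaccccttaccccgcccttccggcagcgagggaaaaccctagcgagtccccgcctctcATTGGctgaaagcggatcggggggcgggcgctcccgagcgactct
Srebf2: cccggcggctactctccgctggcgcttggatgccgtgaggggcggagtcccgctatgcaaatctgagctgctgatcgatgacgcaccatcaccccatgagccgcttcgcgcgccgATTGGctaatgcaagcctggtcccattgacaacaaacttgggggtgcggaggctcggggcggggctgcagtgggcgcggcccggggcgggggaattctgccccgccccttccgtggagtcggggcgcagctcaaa
Mvd: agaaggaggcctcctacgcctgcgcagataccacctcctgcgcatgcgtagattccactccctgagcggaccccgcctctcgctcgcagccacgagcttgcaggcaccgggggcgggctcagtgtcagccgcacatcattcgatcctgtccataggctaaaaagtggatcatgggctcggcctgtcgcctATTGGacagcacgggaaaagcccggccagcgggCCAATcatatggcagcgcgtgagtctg
Hmgcs1 held 3 matches, Srebf2 1 and Mvd 2. These letters describe the promoters and say nothing of what bound there.

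Immediate early genes, which cells switch on within minutes of a stimulus or of handling, had mostly negative fold changes but varied widely between libraries. Of 25 tested, 24 had a negative log2 fold change, 17 lay under the cumulus range without overlap, against 17.1% of all genes, and 1 passed as lower, against 2.3%. Jund was at 88.1 and 43.8 in COC and 199.96, 189.5 and 195 in cumulus cells (log2 fold change -1.63, SE 0.29, adjusted p = 0.035). Fos was at 157 and 32.8 against 351, 850.1 and 852, Egr1 at 154 and 19.3 against 339.5, 424 and 502, and Fosb at 56.1 and 2.96 against 106, 375 and 614 (adjusted p = 0.051, 0.069 and 0.076). In the latter 3 the DBA/2 library was lowest and cumulus replicate 1 was the lowest of the cumulus libraries. The median of the list was -1.63, and 16 members passed as lower when cumulus cells of both ages formed the comparison group, against 5.46% of all genes in that fit. Low levels were not particular to COC. The 28 listed genes summed to 913 and 366 in COC and 690 and 392 in mural cells. In cumulus cells the sums were 1600, 3180 and 3620. Mural cells held Fos at 106 and 26.4 and Jund at 77.9 and 55.9.

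Sik1, a kinase gene induced by cyclic AMP, was at 3.34 and 1.7 in COC and 9.95, 29.5 and 34.6 in cumulus cells. Mural cells held 3.93 and 7.9. Its log2 fold change was -2.74 (SE 0.55, adjusted p = 0.04). That was the largest negative change among passing genes with a mean of at least 5 in cumulus cells. Predicted, microRNA and small nucleolar RNA genes were left out of this ranking. The homeobox genes Hoxd11 and Hoxd10, neighbours in 1 cluster, were at 0 and 1.01 against 11.5, 7.7 and 5.92 and at 2.01 and 0.514 against 8.46, 6.4 and 4.62 (adjusted p = 0.034 and 0.045). Tmsb15b1, an actin-binding thymosin, was at 9.05 and 9.0 against 34.4, 38.2 and 42.4 with little spread (log2 fold change -1.97, SE 0.15, adjusted p = 0.015). Igfbp4, which binds insulin-like growth factors, was at 3.0 and 2.19 against 18.6, 11.9 and 9.58, and Lgals1, galectin 1, at 8.04 and 6.83 against 28.5, 22.9 and 21.6 (adjusted p = 0.034 and 0.033). Robo2, Lpin1, Aox4, Cutc and Slfn3 were lower too, with log2 fold changes from -1.89 (Robo2) to -1.59 (Slfn3).

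Of 20 glycolysis genes tested, 3 were lower, against 2.3% of all genes, and 1 higher, against 9.53%, and 15 had a negative log2 fold change. Pgk1 and Pgam1, enzymes downstream of GAPDH, were at 350.5 and 341 against 543, 557 and 525 and at 279 and 262 against 476, 462 and 404 (adjusted p = 0.035 and 0.036). Slc16a1, a lactate and pyruvate carrier, was at 37.8 and 40.7 against 55.2, 64.5 and 61.5 (adjusted p = 0.046). Ldhb, the lactate dehydrogenase subunit of the oocyte, was higher at 820.1 and 664 against 194, 146 and 367 (log2 fold change 1.75, adjusted p = 0.047), with the order of Gdf9 among libraries. Ldha, the subunit of the cumulus cells, was at 1057 and 973 against 1399.5, 1261 and 1078. Pfkp, the phosphofructokinase that oocytes promote in cumulus cells, was at 39.3 and 44.4 against 67, 61.3 and 56.4 and did not pass (adjusted p = 0.06).

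Of 46 nuclear genes of oxidative phosphorylation, 2 were lower (Cox7b and Atp5o, log2 fold changes -0.66 and -0.96) and 0 higher. Of 57 ribosomal protein genes, 1 was lower (Rpl30, -1.42), and copies of such genes elsewhere in the genome make single members uncertain. Cell cycle genes gave 3 higher and 4 lower of 33: Bub1b, Aurka and Birc5, which act in mitosis and meiosis, were higher (1.29, 0.80 and 0.95), and Mcm4, Ccne1, Kif11 and Ccnd2 lower (-0.72, -0.93, -0.88 and -0.77). Amino acid and one-carbon genes gave Slc6a9, the glycine transporter of oocytes, as higher at 56.2 and 47.5 against 28.2, 22.8 and 32.1, and 1 member passed as lower, of 21 tested. Of 19 heat shock and unfolded protein genes 0 passed in limma, with 6 at an unadjusted p under 0.05.

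Matrix and immune-related genes changed singly. Of 24 matrix genes tested, Lamb1, a laminin beta chain, was higher at 80.8 and 81.2 against 15, 12.3 and 37, Sparc, a collagen-binding protein, higher at 91.8 and 201 against 42.8, 44 and 33.8, and Mmp14, a membrane protease, lower at 7.01 and 4.78 against 15.9, 15.1 and 10.8. Xaf1 was the 1 of 10 interferon-stimulated genes that passed, at 9.36 and 13.1 against 2.21, 1.69 and 2.22 (adjusted p = 0.033). H2-Aa and H2-T23, of 16 histocompatibility genes, were higher, with H2-Aa at 4.62 and 5.65 against 0, 0 and 0.737. In the other C57BL/6 libraries H2-Aa stood at 3.29 and 5.46 (mural cells) and at 3.15, 5.46 and 10 (cumulus cells at 10 months). Histocompatibility haplotypes differ between mouse strains, and how their alleles map to the reference was not tested. Of the leukocyte markers, Ptprc and Cd74 were listed at 0 in both COC libraries, while Fcer1g, an Fc receptor subunit, was at 5.28 and 3.59 against 1.74, 2.28 and 1.4 without overlap and Lyz2, lysozyme, at 0.936 and 4.77 against 0.116, 0.971 and 0.934, and neither passed (adjusted p = 0.067 and 0.23).

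Markers of other ovarian cells were low in all 5 libraries. Immune markers summed to 7.57 and 10.8 in COC and 6.06, 8.86 and 7.44 in cumulus cells over 13 genes, with 8 under an FPKM of 1 in every library. The sums were 8.25 and 6.2 and 4.07, 1.99 and 5.51 for 9 endothelial genes, 25.9 and 24 and 32.2, 33.4 and 35.3 for 14 theca and stroma genes, 17.5 and 7.8 and 19.3, 21.4 and 13.3 for 7 erythroid genes, and 27.4 and 28.4 and 35.6, 27.5 and 30.5 for 10 genes of surface epithelium. Mural libraries held more of each, for example 308 and 441 for theca and stroma. Of these lists 2 genes passed, both as lower: Aldh1a1 at 12.2 and 10.9 against 20.8, 24 and 24.1, and Krt8 at 12 and 15.3 against 30.8, 24.1 and 22.4.

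The libraries appeared to differ in depth, judged from their low values alone, as read depth is not given. FPKM sums ran from 552361 to 603460 over the 5 libraries, while the smallest values above 0 were larger in COC: the 1st percentile was 0.104 and 0.105 in COC and 0.0263, 0.0262 and 0.0265 in cumulus cells. The most common ratio of low values to cumulus replicate 1, a guide to what 1 fragment is worth, was 4.05 and 4.13 in COC, 1.05 in replicate 2 and 0.81 in replicate 3. Even so, 12637 and 12553 genes reached an FPKM of 1 in COC and 11716, 11373 and 12129 in cumulus cells. Spearman correlations across genes were 0.942 for the COC pair and 0.897 to 0.947 within cumulus cells, and of the cumulus libraries replicate 3 was nearest to COC (0.895 and 0.87).

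Fewer genes of microRNAs and small nucleolar RNAs stood above 0 in the COC libraries than in any of the 3 cumulus libraries. Of 717 in the table, 148 were tested, 18 passed as lower and 2 as higher (Mir671 and Snora16a), and all 18 lower ones were listed at 0 in both COC libraries. There were 44 and 35 such genes above 0 in COC and 101, 100 and 120 in cumulus cells. Snord69, for example, was at 3188, 6693 and 5147 in cumulus cells. In units of what 1 fragment is worth, its replicates 2 and 3 stood at 2.0 and 1.99 times replicate 1. Such high values may thus rest on few fragments. Ratios were not this simple in every gene (1.8 and 1.4 for Snord96a). Of 3539 other genes with an FPKM of at least 20 in all 3 cumulus libraries, 0 were listed at 0 in both COC libraries. These were not matched in gene length to the microRNA and small nucleolar RNA genes, so the count does not bear on depth. The part of depth in the 18 calls was not tested.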

How the data were processed

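FPKM values of 10 libraries were deposited by the authors in 1 table of 23234 gene symbols, and the submitters' processing notes name TopHat2 2.1.0, Cufflinks 2.1.0 and mm9. The sources used here name no annotation, strandedness or read depth, so counting error has no interval. A repeated header line (1) was dropped. Values were set to log2(FPKM + 1). Genes whose mean over the 5 libraries reached an FPKM of 1 (12454) entered limma 3.58.1 (R 4.3.3) with an intensity trend, with 2 COC libraries against 3 of cumulus cells, 3 residual degrees of freedom, two-sided tests, Benjamini-Hochberg adjustment and a threshold of 0.05. No covariate was used. The fit was tested on simulated data with noise drawn independently for each gene and library. A library order shared by many genes, as seen in the oocyte markers, was not simulated.

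Named genes were the 12 largest changes per direction among passing genes without overlap whose higher group averaged 5 or more, up to 4 members per list by smallest p, a fixed set of follicle genes, the 10 passing higher genes with an FPKM of at least 5 in cumulus replicate 2 and the widest gap, and the 8 largest ratios per strain among genes at 10 or more. Predicted, microRNA and small nucleolar RNA symbols were left out of these except from the lists. Other genes in the text were picked with their values in view. Some members counted in the lists are not reported here by name. The groups, lists and rule were chosen with earlier results of these data known. Alternatives changed the pseudocount, filter, scaling, libraries in the fit, comparison group, variance model and oocyte content. Promoters are from RefSeq (GRCm38.p6), matched by symbol or synonym. Genes with near-identical copies or overlapping antisense genes are uncertain, as their reads may be shared out wrongly.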

Additional observations from a re-analysis of the deposited data

How the results depend on the processing

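Against 1473 passing genes (1187 higher in COC, 286 lower), the count was 953 (751 higher) with a pseudocount of 0.1, and 927 (748 higher, 179 lower) with no filter on low values. All 10 libraries in the fit gave 3032 (2373 higher, 659 lower), and cumulus cells of both ages 3279 (2599 higher, 680 lower). Scaling moved the split: 586 higher and 645 lower with median centring, 578 and 447 with equal sums without microRNA and small nucleolar RNA genes, 761 and 744 after quantile normalization. With the median of the oocyte markers as a covariate 19 passed (3 higher, 16 lower). That covariate nearly separates the groups and leaves 2 residual degrees of freedom. Leaving out 1 library in turn gave 14 to 2201 genes, 2 to 1827 higher and 9 to 374 lower. Leaving out a COC library leaves 1, assumed to vary like the cumulus libraries. Of the 1473 genes, 1 changed sign with cumulus cells of both ages, and 0 in each other alternative. The 78 named genes that passed kept their sign in all alternatives that gave them a value. The median took both signs over the alternatives in 18 of 34 lists, 13 of them with a median within 0.2 of 0. Larger medians that changed sign were those of endothelial genes (-0.02 after quantile normalization, -0.26 with the covariate), immune genes (-0.53 with both ages), erythroid genes (-1.43 to 0.72 over all), surface epithelium (-0.71 to 0.45 on leaving out 1 library, 0.45 without COC replicate 2) and the zona genes (-0.45 with the covariate, which is built from them). The cause of the other changes was not tested. No paired analysis was possible because the labels give the COC libraries no replicate numbers. Depth limits low values: an FPKM near 0.1 in COC is about the smallest value above 0.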

Other observations

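The COC libraries of the 2 strains differed from each other in a small set of genes. Of 7778 genes at an FPKM of at least 10 in either library, 32 were at least 4-fold apart, 21 higher in BDF1 and 11 higher in DBA/2. With 1 library per strain there is no test, and strain and library cannot be told apart. Amh, the hormone that cumulus cells of growing follicles make, stood at 437 and 44.6 in BDF1 and DBA/2. Wfdc10, a secreted protease inhibitor gene, was at 53.2 and 3.19 against 94.4, 86.1 and 74.4 in cumulus cells at 2 months, and Art4, an ADP-ribosyltransferase gene, at 16.5 and 0 against 32.8, 31.7 and 20.4. Fam25c was at 24.4 and 0, with 16.9, 11.4 and 12.7 in cumulus cells. In all 4 genes the BDF1 library lay outside the range of the cumulus libraries at 2 months but nearer to it than the DBA/2 library. The 4 were picked among genes far higher in BDF1, so a lower DBA/2 value was fixed by the choice. Fosb, an immediate early gene, was at 56.1 and 2.96.

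Genes higher in DBA/2 included Serpina5 (9.38 and 58.2 in BDF1 and DBA/2), Klf1 (6.6 and 36.1) and Penk, the enkephalin precursor (5.95 and 31.7). Rpl26 was at 0.00608 and 41, and such ribosomal genes have copies elsewhere in the genome among which reads can be divided. Glo1, glyoxalase 1, whose copy number is known to differ between inbred strains, was at 73.3 and 82.5 in COC and 64.5, 65.4 and 50.1 in cumulus cells. Nnt, which C57BL/6J mice carry in a deleted form, was at 11.8 and 9.07 in COC and 15.3, 14.5 and 12.8 in cumulus cells, and neither gene passed (adjusted p = 0.17 and 0.16 in limma).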
